A study of Mus musculus with 6 samples.

Results

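The 10 genes described here encode enzymes that make or break down prostaglandins, prostaglandin receptors, and a related receptor regulator, and they were read in cultured mouse colon fibroblasts. They were taken by symbol from a table of RNA levels. All 10 had a row among its 16874 genes. These are the cyclooxygenases Ptgs1 and Ptgs2, the terminal synthases Ptgis, Ptges, Ptges2 and Ptges3, the receptors Ptger2 and Ptger4, the catabolic enzyme Hpgd, and Ptgfrn. The libraries came from colon fibroblasts of C57BL/6 mice aged 12 weeks, 3 with the genotype WT and 3 with the genotype Prkcz-/- in the labels. Both groups had no treatment and were grown in the same serum-containing medium. The product of Prkcz is an atypical protein kinase C. The labels do not say which piece of Prkcz was deleted. Nor do they tie each library to its own mouse or culture, and within a group the titles differ by a serial number alone. The p-values therefore reflect just the spread among these libraries, possibly a technical one. The series' design text speaks of guide-treated cells that these labels do not name.

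Prostaglandins are lipid signals made from arachidonic acid. Phospholipases free the acid from membranes, a cyclooxygenase turns it into prostaglandin H, and a terminal synthase turns that into prostacyclin, prostaglandin E or another product. The products act close to where they are made, through receptors on the cell surface. Fibroblasts of the gut wall are known as a source of prostaglandin E, which acts on the epithelium above them, and prostacyclin is known for relaxing vessels and inhibiting platelets.

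Levels are FPKM, fragments per kilobase of gene scaled to sequencing depth, as the authors deposited them, so levels can be set side by side between genes. Differences are on a log2(FPKM + 0.5) scale, libraries labelled Prkcz-/- minus WT, from limma fitted to the 12130 genes that averaged 0.5 FPKM or more. A gene was called at an adjusted p under 0.05 (Benjamini-Hochberg over all of these genes). Depth was estimated at 14300000 to 16400000 reads in WT and 14900000 to 16800000 in the labelled Prkcz-/- libraries. Prkcz itself went against the labels, at 0.0433, 0.144 and 0.202 FPKM in WT and 1.35, 1.32 and 1.17 FPKM in the labelled Prkcz-/- libraries. Since FPKM sums over all exons, it cannot tell whether reads came from a deleted piece. Directions below therefore mean only one set of labelled libraries against the other. The 10 fibroblast markers listed were all detected in each library, with Col1a1 at 1815 ± 88.7 and 2972 ± 66.5 FPKM and Vim at 1628 ± 76.5 and 2496 ± 60.5 FPKM (SD, n = 3) in WT and in the labelled Prkcz-/- libraries. Of these 10 markers 6 were higher and 4 lower in the labelled Prkcz-/- libraries. The 4 lower ones are named here after their values were seen. They were Dcn (49.1 and 5.34 FPKM), Lum (3.39 and 0.0921 FPKM), Col1a2 (1172 and 826 FPKM) and Col3a1 (730 and 441 FPKM). These 4 markers thus moved the way Ptgis, Ptgs1 and Ptgs2 did. The 6 higher ones, Col6a1, Pdgfrb, Pdgfra, Col1a1, Vim and Thy1, moved the opposite way. Among them Col6a1, Pdgfrb and Pdgfra were higher by 2.143, 1.498 and 1.451 on the log2 scale. The part of the fibroblast markers in the results for Ptgis, Ptgs1 and Ptgs2 was not tested.

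Of the 10 prostaglandin genes, 8 passed the filter on low values and 6 of these were called, 5 lower and 1 higher in the labelled Prkcz-/- libraries. Of all tested genes 68.7% were called, 37.2% lower and 31.5% higher, so the count of called members is close to the background. The size of the differences gives a narrower view. Ptgis, Ptgs1 and Ptgs2 were called and lower by at least 1 on the log2 scale, as were 3.55% of all tested genes. Of the 8 tested members 0 were higher by that much, against 7.29% of all tested genes. The median difference of the 8 was -0.45, beside -0.04 for all tested genes. The exact permutation test over libraries gave p = 0.1, the smallest that 3 against 3 can give, for each of the 6 called members.

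**Figure D1:**
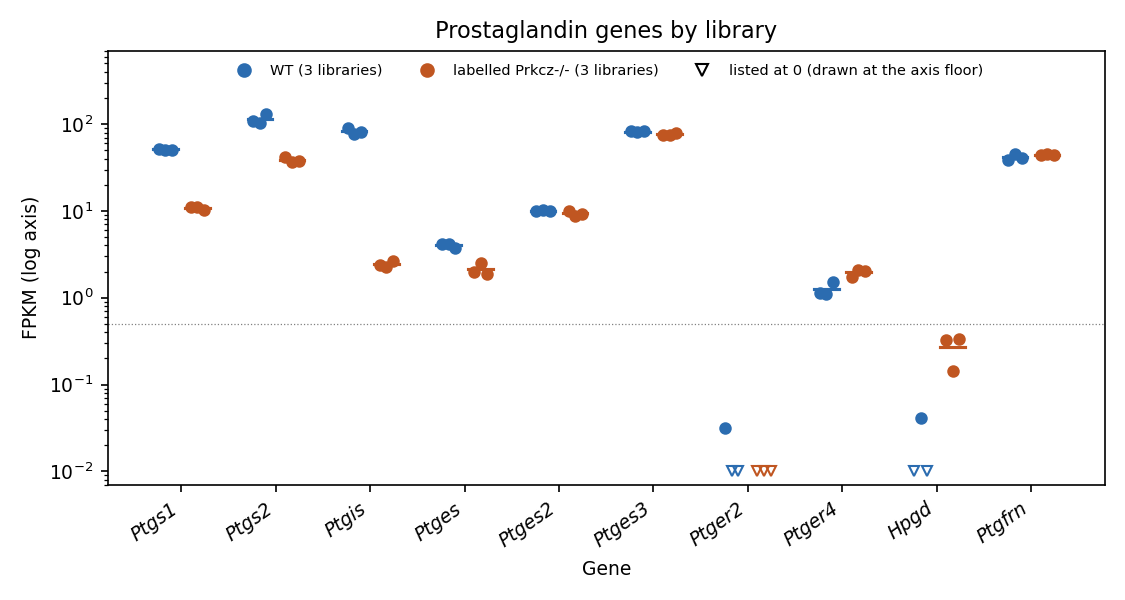
FPKM (log axis) of the 10 prostaglandin genes in each library, with WT in blue and the labelled Prkcz-/- libraries in orange. Short bars are group means, triangles are libraries listed at 0, and the dotted line is the filter value of 0.5 FPKM. The 3 WT points of Ptgis lie between 76.3 and 89.8 FPKM and its 3 other points between 2.27 and 2.63 FPKM.

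The start regions of Ptgs1, Ptgs2 and Ptges, which were lower, are shown first, beside that of Ptger4, the called member that was higher. That of Ptges3, whose call was lost under other scalings, is described without its letters. They run from 250 bases before to 50 bases after the annotated start (RefSeq, GRCm38.p6), read 5′ to 3′ on the strand of the gene. For Ptges this start lies inside the gene span given below, which is from GENCODE, and not at its outer end. Windows were matched for 9 of the 10 members, and Ptgis had no entry. Capitals mark matches, on either strand, to 8 motifs chosen after the values were seen. The motifs were the TATA box (TATAAA), a cAMP response element core (TGACG), an NF-kB site (GGGA, any 4 bases, then CC), a C/EBP site (TTGCNNAA), an AP-1 site (TGANTCA), a GC box of SP1 (GGGCGG), an E-box (CACGTG) and a SOX core (ACAAT).
Ptgs1, chr2:36230176-36230475, plus strand: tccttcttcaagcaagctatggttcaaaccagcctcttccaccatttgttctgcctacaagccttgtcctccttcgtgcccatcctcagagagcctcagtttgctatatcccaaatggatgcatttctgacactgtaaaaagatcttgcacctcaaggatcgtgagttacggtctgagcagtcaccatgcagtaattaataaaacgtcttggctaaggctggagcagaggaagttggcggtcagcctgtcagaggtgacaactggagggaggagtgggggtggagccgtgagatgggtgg
Ptgs2, chr1:150099781-150100080, plus strand: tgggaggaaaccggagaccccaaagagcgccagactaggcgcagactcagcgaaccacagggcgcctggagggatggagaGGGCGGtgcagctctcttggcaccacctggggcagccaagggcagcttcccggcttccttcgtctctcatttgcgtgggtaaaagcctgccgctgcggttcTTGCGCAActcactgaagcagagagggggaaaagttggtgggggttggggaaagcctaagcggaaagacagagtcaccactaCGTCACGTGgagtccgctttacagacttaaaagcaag
Ptges, chr2:30903248-30903547, minus strand: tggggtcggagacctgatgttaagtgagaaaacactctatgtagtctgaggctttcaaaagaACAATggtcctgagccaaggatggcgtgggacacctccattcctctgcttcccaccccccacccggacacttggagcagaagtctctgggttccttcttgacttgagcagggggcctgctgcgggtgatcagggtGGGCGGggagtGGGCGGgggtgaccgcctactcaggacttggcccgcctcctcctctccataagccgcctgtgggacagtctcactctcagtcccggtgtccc
Ptger4, chr15:5244138-5244437, minus strand: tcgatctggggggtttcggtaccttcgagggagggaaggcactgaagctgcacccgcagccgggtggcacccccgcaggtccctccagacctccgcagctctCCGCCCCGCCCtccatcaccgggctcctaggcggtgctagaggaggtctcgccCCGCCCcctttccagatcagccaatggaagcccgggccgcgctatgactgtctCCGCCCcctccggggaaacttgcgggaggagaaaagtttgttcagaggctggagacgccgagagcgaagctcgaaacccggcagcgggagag

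The 4 windows differed in what they held. The Ptgs1 window held none of the 8 motifs. The Ptgs2 window held a C/EBP match starting at -69, a GC box at -170, and a cAMP core at 14 that overlaps an E-box at 17. Positions count the annotated RefSeq start as 1. The Ptges window held 2 GC boxes, at -53 and -42, and a SOX core at -188. The Ptger4 window held 4 GC boxes, at -148, -143, -95 and -42. Among all 32851 windows, 35.7% held the GC box, 31.0% the SOX core, 20.8% the cAMP core, 10.8% the C/EBP letters and 7.15% the E-box. The NF-kB letters were in 20.7% of windows, the TATA box in 13.6% and the AP-1 letters in 7.81%, and none of these 3 motifs was in the windows shown. The Ptges3 window, not shown, held an NF-kB match at -87, a cAMP core at 12 and 4 GC boxes. A match describes letters and is not a measured binding site, and the absence of a match says only that these letters are not in this window.

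The cyclooxygenases carry out the committed step of the pathway. Ptgs1 encodes COX-1, the form that many cells make all the time (chromosome 2, 36230426 to 36252272, plus strand, GENCODE M21 on GRCm38). It measured 52.1, 50.7 and 50.4 FPKM in WT libraries 1 to 3 and 11.04, 11.03 and 10.4 FPKM in those labelled Prkcz-/-. The groups did not overlap, as was so for 72.7% of all tested genes, and each library lay close to the others of its group. The difference was -2.19 (SE 0.0410, limma adjusted p = 8.11e-09), and the mean of the labelled Prkcz-/- libraries was 4.72-fold lower.

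Ptgs2 encodes COX-2, the form that cells switch on in response to growth factors and inflammation (chromosome 1, 150100031 to 150108227, plus strand). It measured 109, 102 and 130 FPKM in WT and 41.4, 36.5 and 37.3 FPKM in the labelled Prkcz-/- libraries. WT library 3 was the highest, and no library of one group reached the other. The difference was -1.55 (SE 0.0872, limma adjusted p = 2.14e-06), a 2.96-fold lower mean. Ptgs2 was the most abundant of the 10 genes in WT, ranking 729 of 16874 by mean level, and ranked 2382 in the labelled Prkcz-/- libraries, where Ptges3 was the most abundant.

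Ptgs2 was more abundant than Ptgs1 in each of the 6 libraries, and the balance between them differed. The ratio of Ptgs2 to Ptgs1 was 2.10, 2.02 and 2.57 in WT and 3.75, 3.31 and 3.60 in the labelled Prkcz-/- libraries, or 2.23 ± 0.296 and 3.55 ± 0.225 (SD, n = 3). The ratios of the groups did not overlap. Ptgs2 made up 66.9% to 72.0% of the cyclooxygenase FPKM in WT and 76.8% to 78.9% in the labelled Prkcz-/- libraries.

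The messages of the cyclooxygenases differ in their 3′ ends. The 3′ untranslated region of Ptgs2 (2445 bases) holds 14 ATTTA pentamers, the core of the AU-rich elements through which RNA-binding proteins set the stability of short-lived messages, and that of Ptgs1 (921 bases) holds 0. The densest 30 bases of the Ptgs2 region, with 4 pentamers in capitals, are shown because several listed regulators of Ptgs2 act through such elements. The window lies in the last exon (GENCODE M21, GRCm38, plus strand).
Ptgs2, chr1:150105794-150105823: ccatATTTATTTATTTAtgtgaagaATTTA
Per kilobase, Ptgs2 held 5.73 pentamers, above 97.0% of the 13217 genes with at least 500 bases of such sequence. Ptger4 held 4.05 per kilobase and Ptges held 0.

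Terminal synthases decide which prostaglandin is made. Ptgis encodes prostacyclin synthase, a cytochrome P450 enzyme (chromosome 2, 167191805 to 167240604, minus strand). It measured 89.8, 76.3 and 80.8 FPKM in WT and 2.37, 2.27 and 2.63 FPKM in the labelled Prkcz-/- libraries. All 3 WT libraries were high and all 3 others low, and the mean was 33.9-fold lower. The difference of -4.82 (SE 0.0731, limma adjusted p = 3.66e-09) ranked 7 from the lowest among 12130 tested genes. By mean level Ptgis ranked 1045 of 16874 genes in WT and 10381 in the labelled Prkcz-/- libraries. In such bulk samples fewer expressing cells and less RNA per cell cannot be told apart.

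Markers of other cell types that are known to express Ptgis were read beside it. The 9 smooth muscle and pericyte markers were all in the table, with a summed level of 2679 to 2968 FPKM in WT and 3069 to 3180 FPKM in the labelled Prkcz-/- libraries. Rgs5 was listed at 0 in each WT library. Acta2 rose from 1179 to 1917 FPKM (adjusted p = 5.71e-06), and Tagln measured 1101 and 1029 FPKM and was not called, though it was lower without WT replicate 2 (adjusted p = 0.00463). Actg2 and Smtn, named after their values were seen, were lower in the labelled Prkcz-/- libraries. Actg2, a smooth muscle actin, measured 467, 443 and 474 FPKM in WT and 54.1, 54.9 and 49.7 FPKM in the others, a difference of -3.11 (limma adjusted p = 3.66e-09), and Smtn measured 32.2 and 19.7 FPKM (adjusted p = 2.49e-06). Of the 8 tested markers of this list 2 were lower and 3 higher. The higher ones were Acta2, Rgs5 and Notch3 (2.36 and 3.08 FPKM, limma adjusted p = 0.0303). Of 7 endothelial markers 6 were in the table, summing to 0.686 to 0.979 FPKM in WT and 0.687 to 0.829 FPKM in the others, with Kdr and Tek the highest and Cdh5 listed at 0 in each labelled Prkcz-/- library. Tek measured 0.553 and 0.278 FPKM, and Kdr 0.197 and 0.264 FPKM. Of 5 mesothelial markers 3 were in the table, summing to 5.33 to 5.96 FPKM in WT and 0.420 to 0.690 FPKM in the others. Wt1 was listed at 0 in each WT library, Krt7 measured 0.125 and 0.385 FPKM, and Msln was lower in the labelled Prkcz-/- libraries, at 5.44 and 0.131 FPKM (adjusted p = 7.85e-08). Actg2, Smtn and Msln thus moved the way Ptgis did, while Acta2, Rgs5 and Notch3 moved the opposite way. The part of these markers in the result was not tested.

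Several enzymes are named for making prostaglandin E, and they did not move alike. Ptges, the inducible membrane-bound synthase that is known to work with COX-2 (chromosome 2, 30889471 to 30929863, minus strand), measured 4.14, 4.20 and 3.78 FPKM in WT and 1.99, 2.49 and 1.89 FPKM in the labelled Prkcz-/- libraries. The groups did not overlap. The difference was -0.80 (SE 0.104, limma adjusted p = 2.42e-04), a 1.90-fold lower mean.

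Ptges2, a second membrane-bound synthase (chromosome 2, 32395896 to 32405772, plus strand), measured 9.90, 10.2 and 10.1 FPKM in WT and 10.1, 8.73 and 9.29 FPKM in the others. The groups overlapped. Its difference was -0.10 with a 95% interval from -0.24 to 0.04 (limma adjusted p = 0.189), so it was not called.

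Ptges3, or p23, was named as a cytosolic prostaglandin E synthase and is best known as a cochaperone of HSP90 (chromosome 10, 128058954 to 128077272, plus strand). It measured 82.3, 81.3 and 82.5 FPKM in WT and 74.0, 75.1 and 79.8 FPKM in the labelled Prkcz-/- libraries. The groups did not overlap, and the third of the lower libraries came nearest to WT. The difference was -0.10 (SE 0.0368, limma adjusted p = 0.0341). That call ended with each other scaling, with an adjusted p = 0.167 with median-ratio scaling, 0.602 when rescaled without short RNA genes and 0.919 with quantile normalization. It also ended without WT replicate 1 (0.0681), WT replicate 3 (0.0839), labelled Prkcz-/- replicate 1 (0.117) or labelled Prkcz-/- replicate 2 (0.0979). The annotation holds a pseudogene named Ptges3-ps, with which reads could be shared.

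**Figure D2:**
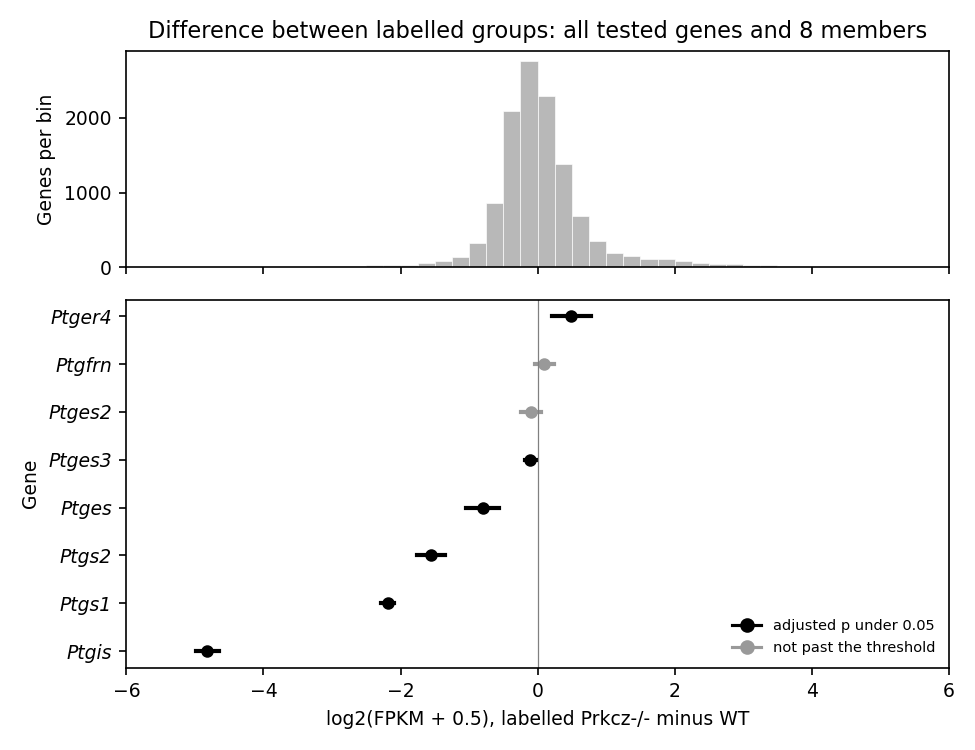
Difference in log2(FPKM + 0.5), libraries labelled Prkcz-/- minus WT, for all 12130 tested genes as a histogram (upper panel) and for the 8 tested prostaglandin genes with 95% intervals (lower panel). Ptgis at -4.82, Ptgs1 at -2.19 and Ptgs2 at -1.55 lie in the lower tail, while Ptges2, Ptges3 and Ptgfrn lie within 0.11 of 0.

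Because Ptgis changed far more than Ptges and Ptges2, the make-up of these membrane-bound synthases turned over. Ptgis held 86.5%, 84.1% and 85.3% of their summed FPKM in WT and 16.4%, 16.8% and 19.1% in the labelled Prkcz-/- libraries. Ptges2 held 9.53% to 11.2% in WT and 64.7% to 69.9% in the others, and Ptges 3.99% to 4.63% and 13.7% to 18.4%. The sum itself went from 90.7 to 104 FPKM in WT to 13.5 to 14.5 FPKM. Ptges3, named as cytosolic, was not part of this sum, at 82.0 FPKM in WT and 76.3 FPKM in the labelled Prkcz-/- libraries. The ratio of Ptgis to Ptges was 20.4 ± 1.95 in WT and 1.17 ± 0.241 in the labelled Prkcz-/- libraries (SD, n = 3). These shares describe RNA and not enzyme activity or product, which were not measured here.

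**Figure D3:**
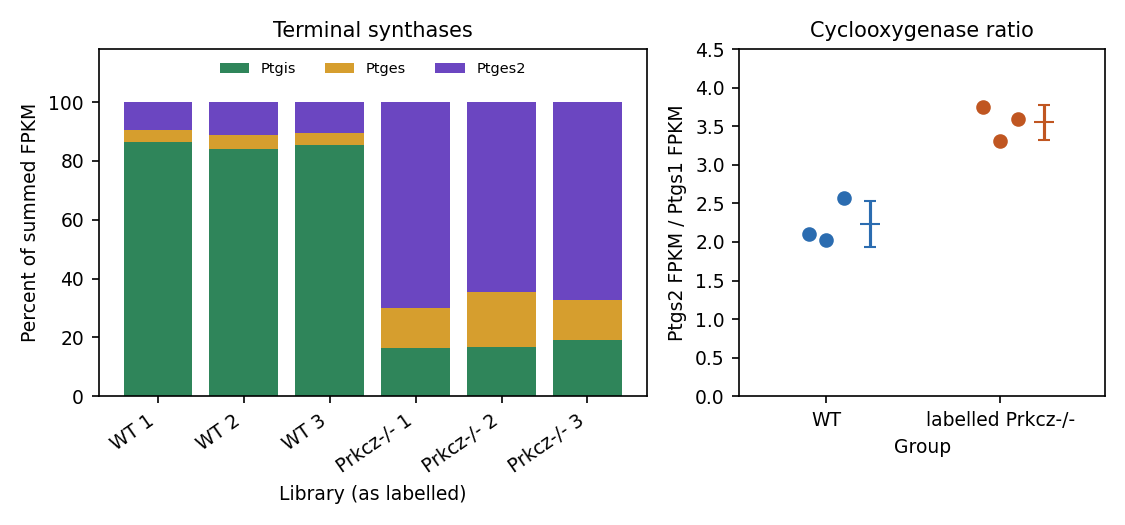
Left, share of Ptgis, Ptges and Ptges2 in their summed FPKM in each library, in percent. Right, the ratio of Ptgs2 FPKM to Ptgs1 FPKM in each library with the group mean and SD (n = 3). Ptgis holds over 84% of each WT bar and at most 19.1% of each other bar, and the ratio is higher in all 3 libraries labelled Prkcz-/-.

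The receptors were at low levels. Ptger4 encodes EP4, a receptor for prostaglandin E that raises cyclic AMP (chromosome 15, 5206661 to 5244187, minus strand). It measured 1.14, 1.10 and 1.505 FPKM in WT and 1.74, 2.10 and 2.03 FPKM in the labelled Prkcz-/- libraries. It was the called member that was higher there, by 0.49 (SE 0.124, limma adjusted p = 0.00801), with the highest WT library close to the lowest of the others. That call ended with quantile normalization, at a difference of 0.24 (adjusted p = 0.134). Ttc33 on the other strand shares 82 exon bases with Ptger4, and the pseudogene Gm15937 shares 1015, which matters if the authors' counting did not use strand.

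Ptger2 encodes EP2, the other receptor for prostaglandin E that raises cyclic AMP (chromosome 14, 44988195 to 45003820, plus strand). It was above 0 in WT library 1 alone, at 0.0316 FPKM, and was listed at 0 in the other 5 libraries. Ptger2 was thus not tested.

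Ptgfrn encodes a membrane protein that binds tetraspanins and is known to reduce ligand binding by the prostaglandin F receptor (chromosome 3, 101040232 to 101110278, minus strand). It measured 38.5, 45.2 and 40.7 FPKM in WT and 44.1, 45.1 and 44.0 FPKM in the labelled Prkcz-/- libraries. WT library 2 lay above all 3 of the others. The difference was 0.10 with a 95% interval from -0.03 to 0.23 (limma adjusted p = 0.156). It became a call at 0.16 without WT replicate 2 (adjusted p = 0.0103). It also became one with median-ratio scaling (adjusted p = 0.0494), quantile normalization (0.0328) and rescaling without short RNA genes (0.0392).

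Hpgd encodes the dehydrogenase that starts the breakdown of prostaglandins and is abundant in colon epithelium (chromosome 8, 56294585 to 56321043, plus strand). It measured 0, 0.0412 and 0 FPKM in WT and 0.329, 0.145 and 0.336 FPKM in the labelled Prkcz-/- libraries. Adjusted for depth, the values above 0 in the latter fell on whole multiples, 8, 4 and 9 times the value in WT library 2. The values thus rest on few reads. All 3 libraries labelled Prkcz-/- were above the WT libraries, but Hpgd did not reach the filter. With no filter its difference was 0.57 (SE 0.110, limma adjusted p = 0.00499 over 16874 genes). Epithelial markers were low in both groups. Of 10 markers 9 were in the table, summing to 1.73 to 2.45 FPKM in WT and 1.11 to 1.89 FPKM in the others. Krt19 measured 1.45 and 0.801 FPKM with overlapping groups, and Krt18 measured 0.242 and 0.370 FPKM. Krt19 was called lower (adjusted p = 0.0318), a call that ended with no filter (0.056) and without WT replicate 2 (0.107), WT replicate 3 (0.0683), labelled Prkcz-/- replicate 1 (0.102) or labelled Prkcz-/- replicate 2 (0.102).

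The genes around these members were grouped by their place in the pathway, in lists chosen with earlier results of these data known. Of 95 tested genes outside the members 39 were higher and 42 lower in the labelled Prkcz-/- libraries. This balance depended on scaling, with 40 higher and 39 lower with median-ratio scaling. When rescaled without short RNA genes, 42 were higher and 37 lower. The share called among all tested genes was 68.7%, and no list was tested as a set.

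Upstream, arachidonate release and recycling had 8 of 14 tested genes lower and 4 higher, with a median difference of -0.48. Pla2g4a, the cytosolic phospholipase that frees arachidonic acid for the cyclooxygenases, fell from 114 ± 3.27 to 55.2 ± 0.494 FPKM (SD, n = 3; limma adjusted p = 9.35e-08). Acsl4, which couples arachidonic acid to coenzyme A, fell from 27.6 ± 1.12 to 18.2 ± 0.352 FPKM, and Lpcat3, which puts it back into membranes, from 32.3 ± 1.06 to 22.8 ± 0.465 FPKM. Pla2g16, a phospholipase best known in fat cells, rose from 4.25 ± 0.634 to 10.3 ± 0.814 FPKM.

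Of 11 other prostanoid synthases and reductases 5 were tested, of which 3 were lower and 2 higher. Cbr2, a carbonyl reductase, rose from 1.06 ± 0.488 to 16.9 ± 1.84 FPKM (SD, n = 3; limma adjusted p = 3.49e-06), and Cbr3 from 7.78 ± 0.803 to 15.3 ± 0.568 FPKM. Akr1b8, an aldo-keto reductase, fell from 50.6 ± 4.18 to 30.1 ± 1.52 FPKM, and Fam213b, which makes prostaglandin F from prostaglandin H, from 6.57 ± 0.195 to 4.36 ± 0.869 FPKM. The synthases of prostaglandin D and thromboxane were near 0. Hpgds was listed at 0 in each labelled Prkcz-/- library and Ptgds in each WT library. Kit, the one mast cell marker of 6 with a row, was above 0 in 1 library, at 0.0114 FPKM.

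Among the other prostanoid receptors 3 of 7 were tested. Ptgir, the receptor for prostacyclin, is named after its values were seen. It measured 0.378, 0.359 and 0.450 FPKM in WT and 0.179, 0.246 and 0.235 FPKM in the labelled Prkcz-/- libraries. Ptgir did not reach the filter and was not tested. Ptgfr, the receptor for prostaglandin F that Ptgfrn binds, measured 0.415, 0.622 and 0.281 FPKM in WT and 7.01, 6.44 and 6.51 FPKM in the labelled Prkcz-/- libraries. It was higher there by 2.94 (SE 0.137, limma adjusted p = 7.71e-07). Ptger1, the calcium-linked receptor EP1, rose from 1.14 ± 0.420 to 3.39 ± 0.252 FPKM (SD, n = 3), and the thromboxane receptor Tbxa2r fell from 1.41 ± 0.219 to 0.653 ± 0.151 FPKM. In the labelled Prkcz-/- libraries Ptgfr was thus the receptor with the highest level among Ptger1, Ptger4, Ptgfr and Tbxa2r. In WT Ptgfr was the lowest of these, at a mean of 0.440 FPKM, and it passed the filter only through the other libraries. That WT rank follows from the filter, which left out receptors lower still in WT, such as Ptgir at a mean of 0.396 FPKM.

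Transport and catabolism had 3 of 5 genes higher and 2 lower. Slco2a1, the transporter that takes prostaglandins up for breakdown, rose from 0.441 ± 0.0148 to 3.53 ± 0.140 FPKM (SD, n = 3; limma adjusted p = 5.85e-07). Zadh2 and Ptgr2, reductases of oxidised prostaglandins, rose from 12.5 ± 0.680 to 29.3 ± 0.592 FPKM and from 7.63 ± 0.435 to 13.7 ± 0.493 FPKM. Their relative Ptgr1, which also acts on leukotriene B, fell from 37.8 ± 1.31 to 21.9 ± 0.423 FPKM.

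**Figure D4:**
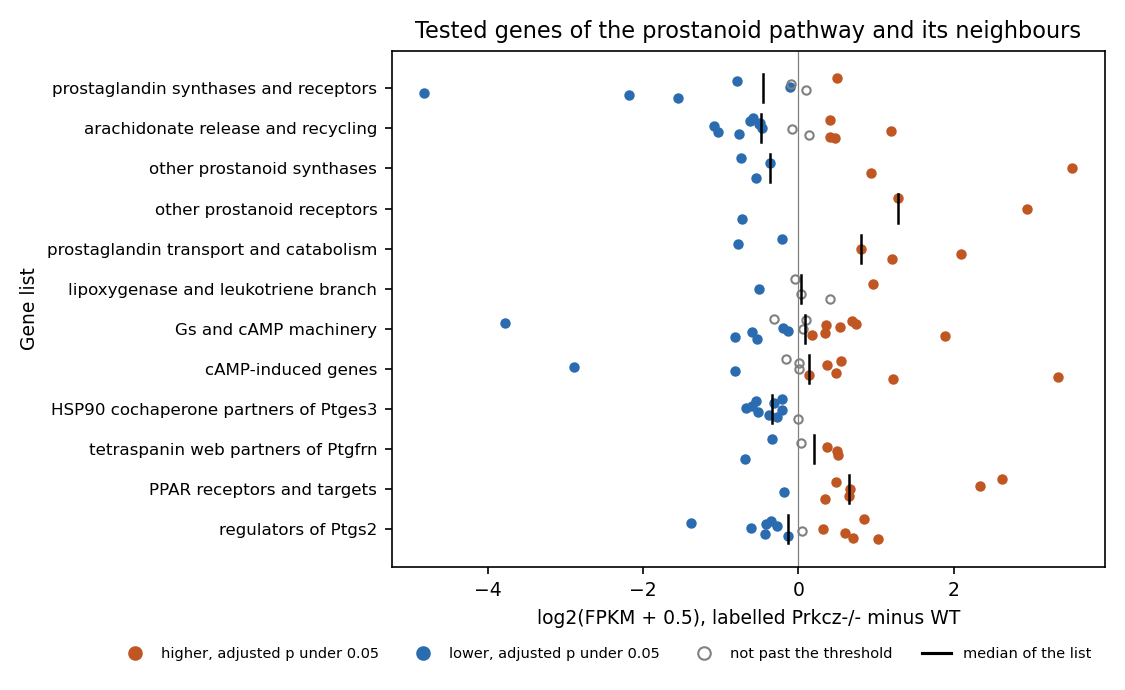
Difference in log2(FPKM + 0.5), libraries labelled Prkcz-/- minus WT, of each tested gene in the lists, with called genes in orange (higher) or blue (lower), others open, and the list median as a bar. Median bars lie at -0.48 for arachidonate release and at 0.80 for transport and catabolism.

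The lipoxygenase and leukotriene branch was mostly below the filter, with 5 of 20 genes tested, 1 higher and 1 lower. Ephx1, an epoxide hydrolase of the endoplasmic reticulum, rose from 55.3 ± 1.04 to 109 ± 0.875 FPKM (SD, n = 3), and its soluble counterpart Ephx2 fell from 0.971 ± 0.105 to 0.536 ± 0.0722 FPKM.

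Downstream of EP2 and EP4, the G protein and cyclic AMP machinery had 7 of 16 tested genes higher and 6 lower. Adcy7, an adenylyl cyclase, fell from 17.5 ± 1.51 to 0.810 ± 0.0918 FPKM (SD, n = 3; limma adjusted p = 2.11e-08), while Adcy6 rose from 17.4 ± 0.348 to 28.5 ± 0.354 FPKM. The kinase subunits Prkaca and Prkar2a were lower too, Prkaca at 85.4 ± 0.397 and 56.3 ± 1.94 FPKM and Prkar2a at 32.0 ± 1.10 and 18.0 ± 0.384 FPKM. The other kinase subunits listed, named after their values were seen, were mixed. Prkar2b was lower (31.0 and 21.3 FPKM), while Prkacb (32.0 and 40.7 FPKM), Prkar1a (192 and 218 FPKM) and Prkar1b (0.286 and 2.39 FPKM) were higher. Genes known to be induced by cyclic AMP were mixed: 6 of the 11 tested were higher and 2 lower. Nr4a2 fell from 11.4 ± 0.389 to 1.12 ± 0.237 FPKM and Pde4b from 15.1 ± 0.311 to 8.32 ± 0.110 FPKM, while Rgs2 rose from 0.311 ± 0.0703 to 7.74 ± 0.379 FPKM and Fosl2 from 25.7 ± 0.794 to 37.7 ± 0.317 FPKM.

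Of 7 tested PPAR receptors and targets, which prostaglandins are among the signals proposed to reach, 6 were higher and 1 lower. Angptl4 rose from 1.16 ± 0.0853 to 9.75 ± 0.610 FPKM (SD, n = 3; limma adjusted p = 7.50e-08) and Pdk4 from 1.74 ± 0.452 to 10.7 ± 0.322 FPKM. Plin2, which coats lipid droplets, rose from 39.6 ± 1.82 to 63.2 ± 3.04 FPKM, and Cpt1a, of fatty acid oxidation, from 25.02 ± 1.71 to 35.1 ± 0.413 FPKM.

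Among 13 tested regulators of Ptgs2 5 were higher and 7 lower. Zfp36l1, which binds AU-rich elements and promotes decay, rose from 25.8 ± 1.40 to 52.8 ± 1.07 FPKM (SD, n = 3, limma adjusted p = 6.67e-07). Celf2, another RNA-binding protein reported to bind the Ptgs2 message, fell from 31.0 ± 1.06 to 11.6 ± 0.266 FPKM. The transcription factors Rela and Hif1a went opposite ways, Rela from 38.2 ± 0.684 to 58.05 ± 1.502 FPKM and Hif1a from 58.8 ± 0.270 to 38.5 ± 0.735 FPKM. RNA stability was not measured, and the part of these regulators in the level of Ptgs2 was not tested.

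The protein partners of Ptges3 and Ptgfrn were read as well. Of 10 genes of HSP90 and its cochaperones 9 were lower and 0 higher, with a median difference of -0.34. Of all tested genes 37.2% were called lower. Hsp90ab1 fell from 1141 ± 39.9 to 795 ± 6.30 FPKM (SD, n = 3; limma adjusted p = 7.54e-06), Cdc37 from 129 ± 6.15 to 88.2 ± 1.74 FPKM, Fkbp4 from 110.4 ± 3.64 to 72.4 ± 2.99 FPKM and Fkbp5 from 28.0 ± 0.185 to 17.3 ± 0.788 FPKM. Of 6 tetraspanin web genes 3 were higher and 2 lower. The tetraspanin Cd9 rose from 140.5 ± 2.13 to 198 ± 4.93 FPKM and Cd151 fell from 88.9 ± 1.41 to 69.9 ± 1.24 FPKM. Igsf8, a relative of Ptgfrn, fell from 41.8 ± 1.48 to 25.8 ± 1.02 FPKM, and Igsf3 rose from 4.23 ± 0.407 to 6.21 ± 0.173 FPKM.

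Genes with the most similar pattern were found by the distance between their 6 values, each on the log2 scale and relative to its WT mean, among 11576 genes. Closest to Ptgis were Brinp1 (distance 0.27), Snora75 (0.30) and Asb5 (0.42), which went from 16.96 ± 1.85 to 0.125 ± 0.0630 FPKM, from 14.0 ± 0.791 FPKM to 0 in each labelled Prkcz-/- library, and from 57.2 ± 1.87 to 1.58 ± 0.354 FPKM (SD, n = 3). Snora75 is a short RNA, for which FPKM is uncertain. Closest to Ptgs2 were Plk2 (0.13), Sdpr (0.15) and Tfrc (0.16). Plk2 measured 89.3, 79.4 and 97.9 FPKM in WT and 30.6, 30.03 and 29.2 FPKM in the others, with WT library 3 highest, as for Ptgs2. Closest to Ptger4 were Ccdc28a (0.09), Wee1 (0.15) and Traf5 (0.17). With 2 groups of 3 libraries, this distance mostly ranks genes by the size of their difference.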

How the data were processed

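RNA was measured in 6 libraries of cultured colon fibroblasts, 3 labelled WT and 3 labelled Prkcz-/-, grouped by the titles and genotype labels. Strand-specific libraries of polyadenylated RNA were read from 1 end, per the labels' protocols. STAR, DESeq2 and mm10 are named in the submitters' processing notes without roles. For tool versions, counting program, annotation and strand setting the entry is: not given in the sources used here. For 16874 genes the authors deposited FPKM values, so no count model was fitted here.

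Genes averaging 0.5 FPKM or more across the 6 libraries entered the fit, in which log2(FPKM + 0.5) was compared with limma 3.58.1 in R 4.3.3 (lmFit, eBayes with a variance trend, two-sided), after the fit was tested on simulated data. Exact permutation tests used scipy 1.17.1. Depth was estimated from low values of genes with 1 annotated transcript, as the read number that put most of them on whole reads (29.8% to 33.7% within 0.05, against a median of 7.81% to 8.81% over the numbers tried). It is approximate, since the lengths used by the authors are not known here. Values of 0 are described as listed at 0.

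The members and lists were chosen with earlier results of these data known. Named genes were all 10 members, up to 4 called genes with non-overlapping groups per pathway list by smallest p, the 2 highest markers per marker list, and the 3 genes most like Ptgis, Ptgs2 and Ptger4. A listed marker is not reported here.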

Additional observations from a re-analysis of the deposited data

How the results depend on the processing

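Ptgis, Ptgs1, Ptgs2 and Ptges kept their direction and their call in each of 16 alternative fits, at -5.03 to -4.60, -2.23 to -2.11, -1.62 to -1.45 and -0.9996 to -0.70 on the log2 scale. These fits were other pseudocounts (0.1 and 1 FPKM), filters (none, and a mean of 2 FPKM), scalings and variance models, a block, and leaving out each library. Ptges3 lost its call at -0.062 with median-ratio scaling, -0.0047 with quantile normalization, -0.023 when rescaled without short RNA genes, -0.10 without a variance trend and -0.10 with the replicate block, and lay between -0.14 and -0.083 with 1 library left out. Ptger4 lost its call at 0.24 with quantile normalization. Ptgfrn gained one at 0.14 with median-ratio scaling, 0.17 with quantile normalization and 0.18 when rescaled, and lay between 0.048 and 0.16 with 1 library left out. The cause was not tested. Uncalled markers changed sign, Cd14 to -0.094 and Tagln to 0.047 with quantile normalization. Among the other named genes Krt19 lost its call in 5 fits, Cd68 gained one in 2 and Tagln in 1. With a minimum difference of 1 as well, 1315 genes, 3 members and 17 pathway genes were called. The balance of directions over all tested genes depended on scaling. In the main fit 3825 genes were called higher and 4511 lower. Median-ratio scaling gave 4168 higher and 4064 lower, and rescaling without short RNA genes 4419 higher and 3659 lower. Quantile normalization gave 3665 higher and 4754 lower. Same-numbered libraries did not deviate together (correlations of 0.0599, 0.0148 and 0.00827), and WT library 2 and WT library 3 each correlated best with another number. With the replicate block 8093 genes and 5 members were called, against 8336 and 6 without it. Values under about 0.5 FPKM rest on few reads, which limits Ptger2 and Hpgd, and among others the WT values of Ptgfr, Slco2a1 and Rgs2. Over the alternative fits the difference ran from 2.42 to 3.69 for Ptgfr, 1.65 to 2.75 for Slco2a1 and 2.74 to 4.27 for Rgs2.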

Other observations

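Immune and neural markers, which bear on no member in particular, were read as well. Of 9 immune markers 7 were in the table, summing to 5.07 to 6.22 FPKM in WT and 5.68 to 5.93 FPKM in the labelled Prkcz-/- libraries, with Ptprc, which marks all white blood cells, listed at 0 in each WT library. Cd14 measured 3.02 ± 0.130 and 3.33 ± 0.479 FPKM and Cd68 2.13 ± 0.335 and 1.73 ± 0.498 FPKM (SD, n = 3), and neither was called, though Cd68 was lower with quantile normalization (adjusted p = 0.0314) and without labelled Prkcz-/- replicate 1 (0.0325). The 5 glial and neuronal markers read summed to 16.0 to 19.8 FPKM in WT and 35.3 to 37.0 FPKM in the others. Nearly all of that was Tubb3, which was higher in the labelled Prkcz-/- libraries (17.6 ± 1.79 and 35.4 ± 1.27 FPKM, limma adjusted p = 8.93e-06), while S100b measured 0.15001 ± 0.109 and 0.545 ± 0.345 FPKM and Sox10 was above 0 in 2 of 6 libraries.

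Akr1b3, an aldose reductase that can also make prostaglandin F, is named here after its values were seen. It measured 1.15 FPKM in WT libraries 1 and 3 and under 0.001 FPKM in the other 4 libraries. Its values carry no test.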
